A study of Mus musculus with 4 samples.

Results

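PLX5622, a diet-borne inhibitor of the CSF1 receptor that is used to deplete microglia, was compared with vehicle diet in single nuclei of the mouse hippocampus. Nuclei of both PLX5622 pools were set against those of both vehicle pools, paired by stress state, after nuclei with over 20% of UMIs (unique transcripts) in mitochondrial genes were left out. This gave 30866 of the 56834 nuclei of the series: 8474 in Control-Vehicle, 7382 in Control-PLX5622, 7332 in Stress-Vehicle and 7678 in Stress-PLX5622. Mice of the diet pools were C57BL/6 males, 5 to 7 weeks old, and each pool was made from hippocampi of 3 mice. PLX5622 was mixed into AIN-76A chow at 1200 mg/kg, and vehicle mice ate AIN-76A chow alone. By the study's schedule both diets began 7 days before repeated social defeat (RSD). RSD exposed caged mice to an aggressor of the CD-1 strain in 6 nightly sessions of 2 h. Hippocampi were collected 14 h after the final session. A further 4 pools, for which the labels name no diet, came from Cre-negative IL-1R1+/+ mice without stress (Con-IL-1R1+/+) or with it (Stress-IL-1R1+/+), and from nIL-1R1-/- mice, in which Cre under Vglut2 removes the receptor from glutamatergic neurons, likewise (Con-nIL-1R1-/- without stress, Stress-nIL-1R1-/- with it). They entered the fits to estimate the spread between pools, and their values stand beside the diet pools as a further reference. With 1 pool per condition, p-values measure the spread left between these 8 pools after terms for stress and arm, and not the spread between mice. That spread has 3 residual degrees of freedom. As no condition has a replicate pool, it also holds any effect of stress that differs between arms.

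Depth differed with the diet. Median UMIs per nucleus were 598 in Control-PLX5622 and 628 in Stress-PLX5622, against 2563 in Control-Vehicle, 1325.5 in Stress-Vehicle and 2580 to 5012 in the other 4 pools. A difference between diets was therefore counted only if both pairs moved the same way, and for genes only if they did so again with every nucleus thinned to 300 UMIs. Nuclei under 300 UMIs were left out of the thinned values. They numbered 786 in Control-PLX5622 and 922 in Stress-PLX5622, against 0 in Control-Vehicle and 247 in Stress-Vehicle. All pools were barcoded together. Clusters were named "-like" from marker lists, and clusters whose leading genes belonged to another class or to several were left unnamed. Other clusters, most of them neuronal, were left unnamed because no marker of the best class led, or because marker scores were low or near those of a second class. Neuronal clusters left unnamed held 21.0% of nuclei in Control-Vehicle, 36.5% in Control-PLX5622, 26.1% in Stress-Vehicle and 28.6% in Stress-PLX5622.

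CSF1R is a receptor tyrosine kinase on the surface of microglia, the resident macrophages of the brain. Its ligands are CSF1 and IL-34, the latter made largely by neurons, and microglia depend on this signal for survival. Homeostatic microglia are recognised by genes that sense nucleotides, chemokines and apoptotic cells, such as P2ry12, Cx3cr1, Siglech and Mertk. Many of these genes are driven by the myeloid factor PU.1, encoded by Spi1, which binds purine-rich DNA with the letters GAGGAA at its core.

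Promoter windows of 3 genes of the homeostatic list are shown because these genes had the smallest p-values of the list among those with a single eligible window in the reference. Each window runs from 250 bases before the start to 50 bases after it (RefSeq, GRCm38.p6, gene strand). Capitals mark GAGGAA or its reverse complement TTCCTC. Siglech encodes a sialic acid-binding lectin of microglia (chr7:55767934-55768233, plus strand), Inpp5d the inositol phosphatase SHIP1 (chr1:87620062-87620361, plus strand) and Fcrls an Fc receptor-like scavenger receptor (chr3:87263475-87263774, minus strand).
Siglech: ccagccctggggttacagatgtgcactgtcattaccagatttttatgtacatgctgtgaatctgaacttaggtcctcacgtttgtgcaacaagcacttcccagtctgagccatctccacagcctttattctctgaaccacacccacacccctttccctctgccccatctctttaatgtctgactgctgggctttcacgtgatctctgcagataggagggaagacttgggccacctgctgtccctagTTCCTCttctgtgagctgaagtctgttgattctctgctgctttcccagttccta
Inpp5d: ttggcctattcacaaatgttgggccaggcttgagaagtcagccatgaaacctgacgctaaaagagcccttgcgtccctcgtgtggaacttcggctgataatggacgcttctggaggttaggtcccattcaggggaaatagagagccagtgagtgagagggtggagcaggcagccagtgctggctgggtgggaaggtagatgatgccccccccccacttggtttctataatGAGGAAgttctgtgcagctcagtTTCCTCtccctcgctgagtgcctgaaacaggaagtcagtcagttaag
Fcrls: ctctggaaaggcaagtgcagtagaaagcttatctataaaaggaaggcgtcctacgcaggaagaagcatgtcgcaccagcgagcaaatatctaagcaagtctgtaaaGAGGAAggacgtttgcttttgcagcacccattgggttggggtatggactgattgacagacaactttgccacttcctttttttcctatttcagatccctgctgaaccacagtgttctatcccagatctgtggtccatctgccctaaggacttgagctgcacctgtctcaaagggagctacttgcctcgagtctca
The letters GAGGAA, searched on both strands, stood in 17 of 29 windows of the 22 list genes that the table holds (58.6%), and in 28.3% of all 32851 windows. A match of letters is a description of the window and not a binding site.

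In the main clustering no microglia-like nuclei were detected in either PLX5622 pool. There were 23 in Control-Vehicle (0.271%, exact 95% interval 0.172 to 0.407%) and 29 in Stress-Vehicle (0.396%, 0.265 to 0.568%). In Control-PLX5622 there were 0 of 7382 (exact 95% upper limit 0.05%), and in Stress-PLX5622 0 of 7678 (0.048%). Set against a floor of 3 nuclei per pool, the share was 6.68-fold lower in the control pair and 10.1-fold lower in the stress pair. Those values leave out counting error in the vehicle pools. The exact 95% upper limit of the log2 ratio of PLX5622 to vehicle was -2.32 in the control pair and -2.95 in the stress pair. The 4 pools of the receptor experiment held 18 to 52 microglia-like nuclei (0.277 to 0.860%), so no PLX5622 pool overlapped any other pool. The share fell with PLX5622 (edgeR quasi-likelihood test over 8 pools, adjusted p = 0.0147 over 19 classes). These counts are of nuclei that could be assigned, and intervals hold counting error only.

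**Figure D1:**
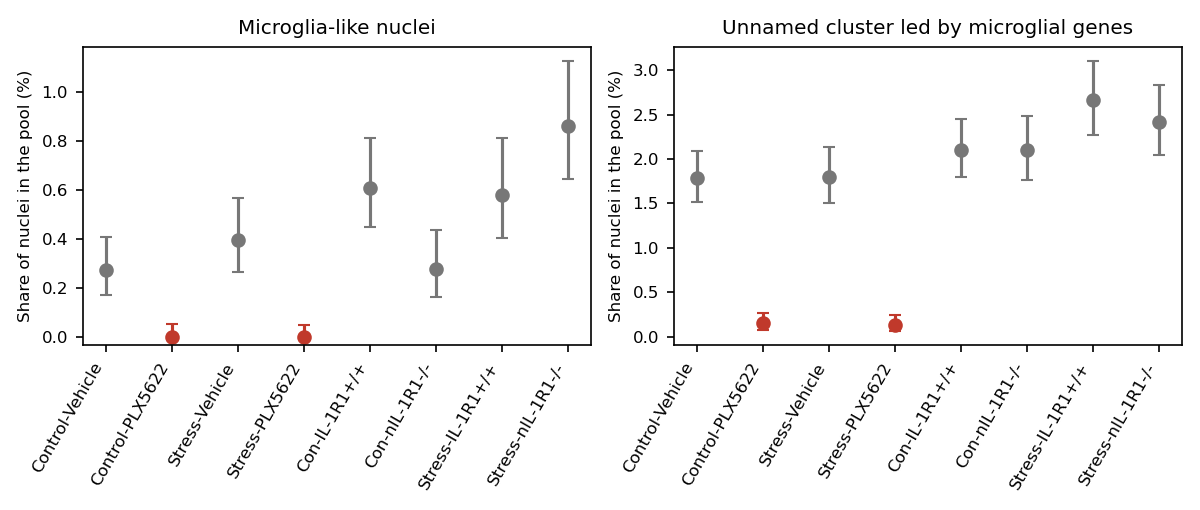
Share of nuclei (% of the pool, vertical axis) that were microglia-like (left) or in the unnamed cluster led by Inpp5d, Runx1 and Csf1r (right) in each of the 8 pools (horizontal axis). Points are shares and bars exact 95% intervals, with PLX5622 pools in red; both red points sit at 0% on the left and at 0.149% and 0.130% on the right, below all 6 grey points.

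A larger cluster that shared leading genes also took fewer nuclei with PLX5622. It was led by Inpp5d, Runx1 and Csf1r but was left unnamed, because the neuronal list scored highest on it while Inpp5d, Csf1r and Siglech among its leading genes were microglia markers. It took 151 nuclei in Control-Vehicle (1.78%) and 132 in Stress-Vehicle (1.80%), but 11 in Control-PLX5622 (0.149%) and 10 in Stress-PLX5622 (0.130%). The shares were 11.96-fold and 13.8-fold lower with PLX5622. On the log2 scale the ratio was -3.58 (95% interval -4.61 to -2.70) in the control pair and -3.79 (-4.88 to -2.86) in the stress pair. In the other 4 pools the cluster took 2.10 to 2.66%. The fitted log2 difference was -3.66 (SE 0.31, adjusted p = 0.001, edgeR). These were the 2 of 19 classes that passed lower (10.5%), and 0 passed higher (0.0%), where 1 class, the ependymal-like nuclei, had an unadjusted p under 0.05.

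The nuclei of that cluster differed in depth between the pools. Of 151 nuclei in Control-Vehicle 126 held at least 2 of 14 microglia marker genes, and of 132 in Stress-Vehicle 99 did. In Control-PLX5622 2 of 11 did, and in Stress-PLX5622 4 of 10. Their summed marker level was 911 and 1285 CPM (UMI counts scaled by the total of the pool or class) with PLX5622, against 901 and 2277 CPM with vehicle. Those sums rest on 14 and 16 UMIs in the PLX5622 pools, and the median depth was 673 and 955 UMIs against 3126 and 1174.5. Thinned to 300 UMIs each, 26 of 151 nuclei (17.2%) in Control-Vehicle and 0 of 11 in Control-PLX5622 held at least 2 of the markers, where 0 of 11 allows up to 27.3%. In the stress pair 40 of 125 (32.0%) did with vehicle and 2 of 9 (22.2%) with PLX5622. Scrublet, a caller that scores likeness to simulated doublets, placed 9.93% of this cluster in Control-Vehicle and 3.79% in Stress-Vehicle among the 6% of highest scores. Neuron markers in the cluster summed to 13690 and 11370 CPM with vehicle, where DG-like nuclei had 12590 and 12250 CPM. With PLX5622 they summed to 6569 and 6905 CPM in the cluster. Its microglia marker level of 901 and 2277 CPM with vehicle stands against 10740 and 11160 CPM in microglia-like nuclei.

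The same difference appeared without clusters, in nuclei thinned to 300 UMIs. Nuclei with at least 2 microglia marker genes numbered 46 of 8474 in Control-Vehicle (0.543%, 0.398 to 0.723%) and 61 of 7085 in Stress-Vehicle (0.861%, 0.659 to 1.11%). There were 0 of 6596 in Control-PLX5622 (up to 0.0559%) and 2 of 6756 in Stress-PLX5622 (0.0296%, 0.00359 to 0.107%). The other 4 pools had 0.415 to 1.27%. The mean over PLX5622 pools was 0.845 percentage points below that of the other 6, and both lay below all of them. An exact two-sided permutation test over the 28 arrangements of pools gave p = 0.0714, the smallest it can give. In DG-like, CA1-like, astrocyte-like and oligodendrocyte-like nuclei of the 6 pools, which should lack these genes, the same count was 0.0%, and it was 71.3% in microglia-like nuclei. It was 0.0693% in INH-like, 0.0310% in CA2/3-like, 0.599% in Cajal-Retzius-like and 0.00984% in unnamed neuronal nuclei, and 23.0% in the unnamed Inpp5d-led cluster. Classes were named from the same transcripts, so these shares are not independent of the naming.

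Over all nuclei, UMIs of the homeostatic microglia list were lower with PLX5622. Of 30 genes 29 passed the filter on low values, and 27 of them were lower in both pairs (93.1% of those tested against 32.1% of all genes). In 20, both PLX5622 pools lay below all 6 other pools, which held for 8.03% of all 19806 genes. Some list members rest on few UMIs with PLX5622: Fcrls, Trem2 and P2ry13 each gave 0 in Control-PLX5622 and 1 in Stress-PLX5622. The shares of all genes were not matched to the list for UMI counts, so they are not a like-for-like reference. The median log2 difference of the list was -1.39, and every tested member was below 0, while that of all genes was 0.01. None passed on its own on all UMIs: 0 of 19806 genes were called in either direction (0.0%, edgeR), while 830 higher (4.19%) and 500 lower (2.52%) had an unadjusted p under 0.05, 18 of the latter from the list. DESeq2 called 22 higher (0.111%) and 13 lower (0.0656%). In such sums, fewer cells of a type and less RNA per cell cannot be told apart.

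When every nucleus was thinned to 300 UMIs, 4 of 11512 genes passed lower (0.0347%) and 0 passed higher. They were Inpp5d (log2 difference -2.45, adjusted p = 0.0282, edgeR), Slco2b1, an organic anion transporter (-2.52, 0.0282), Siglech (-3.01, 0.0395) and Cyth4, a cytohesin of blood-lineage cells (-2.45, 0.0395). With 500 UMIs they were Inpp5d, Siglech and Csf1r, 3 of 12708 (0.0236%). In nuclei of 300 to 1200 UMIs, an alternative chosen after seeing the data so that pools had like depths, 37 of 10327 genes fell (0.358%) and 0 rose. Of these 37, 10 are on the microglia lists: Csf1r (-3.43), Siglech (-3.63), Inpp5d (-3.37), Slco2b1 (-2.81), Selplg (-2.79), Cx3cr1 (-2.20), Ctss (-2.85), Spi1 (-3.20), Runx1 (-1.89) and Dock8 (-2.03). Among the other 27 were Ikzf1, a lymphoid and myeloid transcription factor (-3.02), the haematopoietic signalling genes Vav1 (-3.25), Lyn (-2.32) and Dock2 (-1.94), and Ly86, a partner of Toll-like receptor complexes (-2.08); these were named after their values were seen.

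Csf1r itself, the drug's target, gave 220 and 213 UMIs in Control-Vehicle and Stress-Vehicle and 13 and 9 in Control-PLX5622 and Stress-PLX5622. Its level was 5.69 and 14.1 CPM with vehicle, 1.70 and 1.19 CPM with PLX5622, and 5.54 to 11.6 CPM in the other 4 pools, so the groups did not overlap. The fitted log2 difference was -2.60 (SE 0.37, adjusted p = 0.197, edgeR), and 5 of 17 alternatives called it.

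Siglech (GRCm39 chromosome 7, 55417926 to 55429195) gave 157 and 149 UMIs with vehicle, 8 and 10 with PLX5622 and 159 to 268 in the other 4 pools. Its log2 difference on all UMIs was -2.41 (SE 0.38, adjusted p = 0.197, edgeR), and 6 of 17 alternatives called it. Fcrls gave 49 and 38 UMIs with vehicle and 0 and 1 with PLX5622, with 22 to 57 in the other 4 pools. Against a floor of 3 UMIs, Fcrls was 3.23-fold lower in the control pair, a value that leaves out counting error in Control-Vehicle.

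List genes with the most UMIs over the diet pools differed by unequal amounts, and none passed on all UMIs. Inpp5d had 13.2 and 31.5 CPM with vehicle and 5.62 and 5.97 with PLX5622, below every other pool (log2 difference -1.78, SE 0.31). Slco2b1 had 6.80 and 18.7 CPM with vehicle and 2.35 and 6.90 with PLX5622, where the higher PLX5622 pool overlapped Control-Vehicle (-1.39, SE 0.24). Dock8, a guanine nucleotide exchange factor of immune cells, had 7.75 and 16.96 CPM with vehicle and 5.75 and 6.64 with PLX5622 (-0.85, SE 0.27). The TGF-beta receptor Tgfbr1 had 32.2 and 40.8 CPM with vehicle and 23.3 and 32.1 with PLX5622 (-0.35, SE 0.14). Mertk, a receptor for apoptotic cells, had 31.3 and 45.9 CPM with vehicle and 20.1 and 49.6 with PLX5622, so its pairs went opposite ways (-0.19, SE 0.24).

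These genes also differ in where their vehicle UMIs lie. In the 2 vehicle pools together, microglia-like nuclei and the unnamed Inpp5d-led cluster held 82.7% of Siglech UMIs, 80.3% of Inpp5d UMIs and 75.8% of Csf1r UMIs. They held 43.3% of P2ry12, 37.6% of Tgfbr1 and 35.2% of Mertk UMIs. Outside those nuclei the log2 ratio of PLX5622 to vehicle was 0.17 for Siglech in the control pair (95% interval -1.15 to 1.30) and -0.39 in the stress pair (-1.89 to 0.94). For Csf1r it was -0.09 (-1.07 to 0.78) and -1.07 (-2.30 to 0.01). For Mertk it was -0.17 (-0.43 to 0.08) and 0.94 (0.73 to 1.15).

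**Figure D2:**
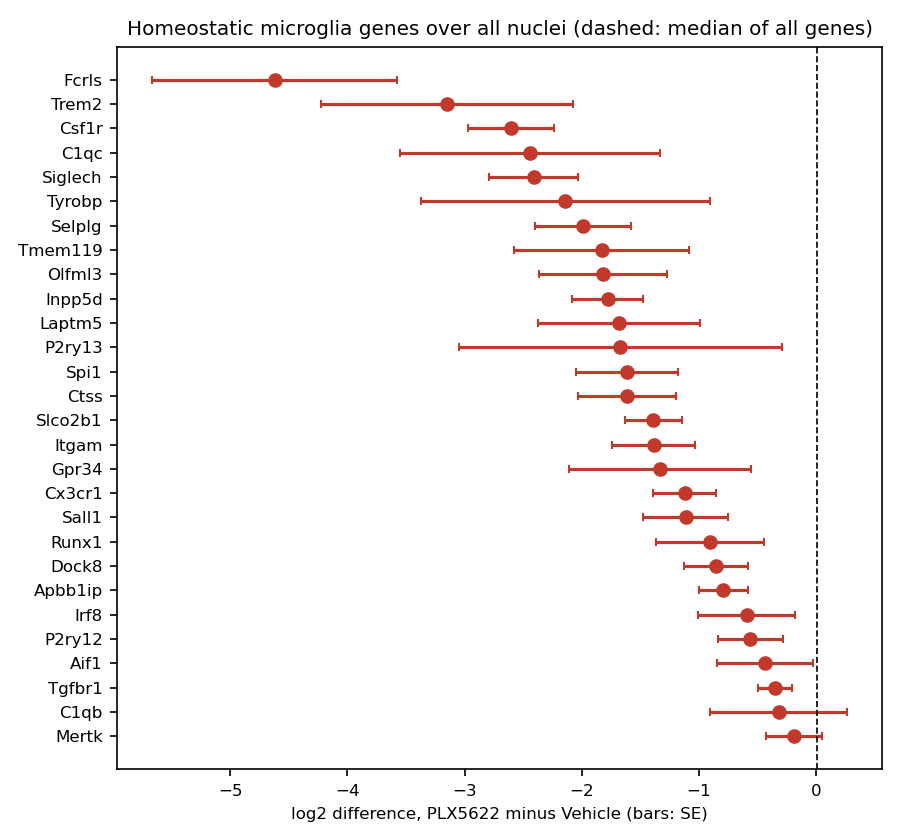
Log2 difference of PLX5622 minus Vehicle (horizontal axis) over all nuclei for homeostatic microglia genes that passed the filter and are reported here (vertical axis). Points are edgeR estimates over 8 pools, bars SE and the dashed line the median of all genes (0.01); every point lies below 0, the lowest at -4.62 for Fcrls.

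Other macrophages and ligands of CSF1R were measured in the same sums, where 0 of 19806 genes were called. Of 8 border macrophage genes, which mark perivascular and meningeal macrophages, 3 passed the filter and 0 passed the test. Mrc1, the mannose receptor CD206, gave 40 and 11 UMIs with vehicle and 1 and 3 with PLX5622 (log2 difference -1.80, SE 0.68). Stab1, a scavenger receptor, gave 118 and 123 UMIs with vehicle and 6 and 27 with PLX5622 (-1.33, SE 0.31). F13a1, coagulation factor XIII, went the other way, with 2.66 and 3.63 CPM with vehicle and 5.23 and 5.44 with PLX5622 (0.83, SE 0.29). The ligand Il34 had 16.5 and 17.4 CPM with vehicle and 16.9 and 17.8 with PLX5622 (0.09, SE 0.18, adjusted p = 0.964). The ligand Csf1 had 8.84 and 10.95 CPM with vehicle and 7.58 and 13.01 with PLX5622 (0.10, SE 0.22, adjusted p = 0.969). The related kinases Kit (0.01, SE 0.17), Flt3 (-0.13, SE 0.18), Pdgfra (-0.33, SE 0.23) and Pdgfrb (0.67, SE 0.26) did not pass. Of 10 genes of this receptor and ligand list, 0 were called, with a median log2 difference of 0.02.

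Of 7 complement genes tested over all nuclei, 0 passed, where 0 of all 19806 genes did. In both pairs 2 were lower and 2 higher, where 32.1% and 20.8% of all genes were. The median log2 difference was 0.04. C1qa and C1qc, subunits of the C1q complex made by microglia, gave 11 and 12 UMIs in Control-Vehicle and 0 each in Control-PLX5622, and 5 and 6 UMIs in Stress-Vehicle against 0 and 1 in Stress-PLX5622. No difference was detectable at this depth, since the upper 95% limits of the log2 ratios of PLX5622 to vehicle ran from 0.86 to 1.47. C1qb gave 32 and 23 UMIs with vehicle and 9 and 4 with PLX5622 (log2 difference -0.32, SE 0.58). Scaled by the pool totals, which differed, C1qb was higher with PLX5622 in the control pair and lower in the stress pair. C4b, the complement component cut by C1, was higher in both pairs, with 53 and 25 UMIs with vehicle and 28 and 89 with PLX5622. The log2 ratio of C4b was 1.42 (95% interval 0.70 to 2.10) in the control pair and 2.84 (2.19 to 3.54) in the stress pair, and the fitted difference was 2.25 (SE 0.35, adjusted p = 0.197, edgeR). DESeq2 called C4b higher (adjusted p = 0.000584). In astrocyte-like nuclei C4b had 41.7 and 49.4 CPM with vehicle and 85.2 and 120.9 with PLX5622, and in oligodendrocyte-like nuclei 7.84 and 6.88 CPM against 71.0 and 82.0, on 4 and 14 UMIs in the PLX5622 pools; neither passed (adjusted p = 0.457 and 0.999).

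The reactive astrocyte list leaned higher over all nuclei without a call by edgeR. Of 14 genes 11 were tested, 7 were higher in both pairs (20.8% of all genes were), 4 had an unadjusted p under 0.05 in that direction (4.19% of all genes) and the median log2 difference was 0.53. Gfap, the astrocyte intermediate filament, gave 62 and 31 UMIs with vehicle and 26 and 66 with PLX5622 (1.69, SE 0.35, adjusted p = 0.380, edgeR). DESeq2 called Gfap higher over all nuclei (adjusted p = 0.0322), as it did C4b of the same list. In astrocyte-like nuclei Gfap had 46.8 and 90.5 CPM with vehicle and 170.4 and 147.5 with PLX5622 (1.35, SE 0.35, adjusted p = 0.186). The share of astrocyte-like nuclei itself differed between pools, as given below. Cxcl10, an interferon-induced chemokine, gave 16 UMIs in Stress-PLX5622, 0 in the other 3 diet pools and 0 to 2 in the remaining 4. The interferon response list held 10 tested genes, with 0 called and a median log2 difference of -0.16.

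Among other classes, oligodendrocyte precursor-like nuclei were less frequent in both PLX5622 pools. These cells divide in the adult brain and give rise to oligodendrocytes. Their number was 227 (2.68%) in Control-Vehicle, 95 (1.29%) in Control-PLX5622, 155 (2.11%) in Stress-Vehicle and 105 (1.37%) in Stress-PLX5622. The other 4 pools held 2.25 to 2.77%, so both PLX5622 shares lay below those of all other pools, as did those of 3 of 19 classes (15.8%). The log2 ratio was -1.06 (95% interval -1.42 to -0.71) in the control pair and -0.63 (-0.9998 to -0.26) in the stress pair. The fitted difference of -0.85 (SE 0.28) did not pass (adjusted p = 0.123, edgeR). Ependymal-like nuclei, the ciliated lining of the ventricles, went the other way, with 15 and 8 nuclei in Control-Vehicle and Stress-Vehicle and 31 and 27 in Control-PLX5622 and Stress-PLX5622. Their share was 2.37-fold and 3.22-fold higher, above all other pools (1 of 19 classes, 5.26%), with a log2 difference of 1.41 (SE 0.41) that did not pass (adjusted p = 0.104). Shares of neurons from neighbouring regions also varied between pools, from 0.323 to 21.0% for Slc17a6 excitatory-like nuclei and from 0 to 4.69% for medium spiny-like nuclei, and their part in these differences was not tested.

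In 3 classes the pairs went opposite ways beyond counting error. Astrocyte-like nuclei made up 2.69% with vehicle and 2.01% with PLX5622 in the control pair, and 2.13 and 5.13% in the stress pair. For oligodendrocyte-like nuclei these shares were 3.39 and 1.68%, then 1.87 and 3.52%. For an unnamed cluster led by Prr5l they were 3.87 and 2.75%, then 2.54 and 3.28%. The share of DG-like nuclei, the granule cells of the dentate gyrus, was 20.5% with vehicle and 14.2% with PLX5622 in the control pair and 21.0 and 19.7% in the stress pair. CA1-like nuclei made up 15.1 and 14.5% and 19.2 and 17.1%, and inhibitory (INH-like) nuclei 10.8 and 10.6% and 9.23 and 8.71%. The fitted log2 differences were -0.29 (SE 0.30), -0.12 (SE 0.34) and -0.05 (SE 0.31), with adjusted p-values of 0.807, 0.911 and 0.911. CA2/3-like nuclei were lower in both pairs, at 8.92 and 7.55% and 9.25 and 6.41%, within the spread between pools (adjusted p = 0.807). That direction was lost with classes from thinned nuclei, where the log2 ratios were 0.12 and -0.02. In nuclei of 300 to 1200 UMIs they were 0.35 and -0.22. A shallow unnamed neuronal cluster (median 488 UMIs) held 143 and 335 vehicle nuclei and 1456 and 1272 PLX5622 nuclei. Its part in the shares of named neurons was not tested.

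**Figure D3:**
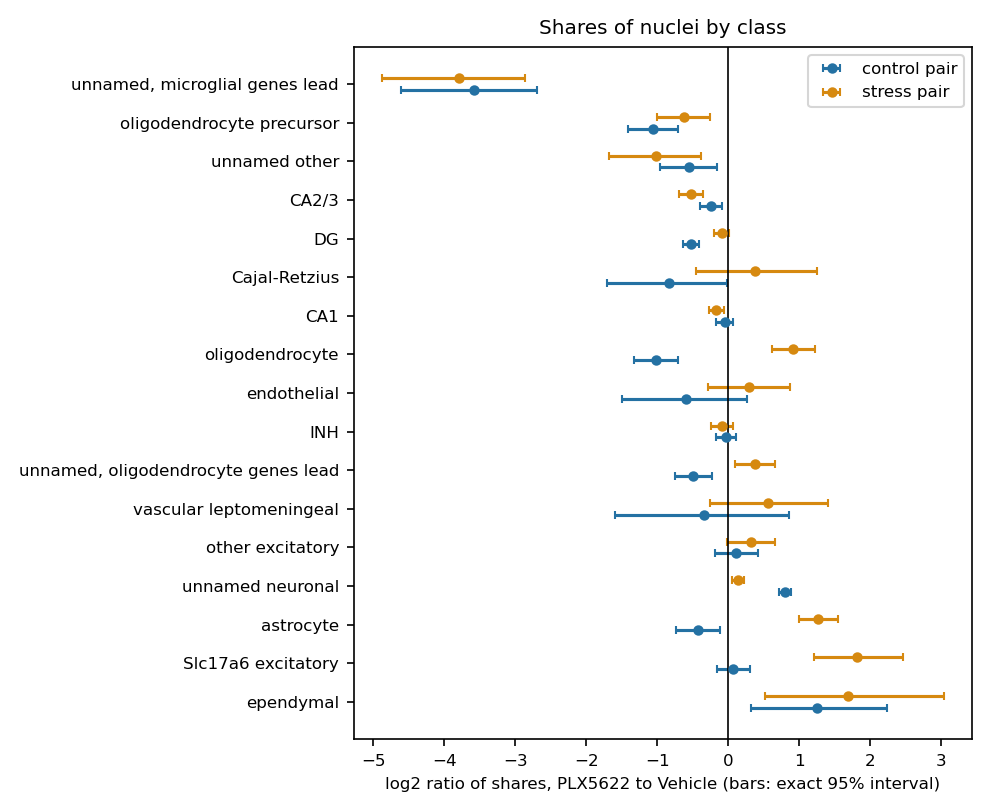
Log2 ratio of each class's share of nuclei in PLX5622 to that in Vehicle (horizontal axis), for the control pair (blue) and the stress pair (orange). Bars are exact 95% intervals of counting error; classes with under 50 nuclei in the 4 diet pools and microglia-like nuclei, at 0 with PLX5622, are left out, and the unnamed cluster led by microglial genes lies at -3.58 and -3.79 while astrocyte-like nuclei lie at -0.42 and 1.27.

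Within classes, few genes passed. In simulated counts the fit recovered 48 of 98 2-fold and 74 of 99 4-fold changes in DG-like nuclei. For oligodendrocyte-like nuclei it recovered 12 of 93 and 54 of 96. Genes that did not pass may therefore still differ between diets. Fits were made for the 8 named classes with at least 50 nuclei in every pool, and unnamed clusters were not fitted. In DG-like nuclei 12 of 11686 genes passed higher (0.103%) and 0 passed lower (0.0%, with 289 at an unadjusted p under 0.05, or 2.47%, and 0 by DESeq2). Astrocyte-like nuclei gave 11 of 5584 (0.197%), other excitatory-like nuclei 5 of 7416 (0.0674%) and CA1-like nuclei 2 of 11397 (0.0175%), all higher. CA2/3-like, INH-like, oligodendrocyte-like and oligodendrocyte precursor-like nuclei gave 0 of 11165, 12943, 5997 and 7428 genes (0.0%). In these 4 classes 353 (3.16%), 386 (2.98%), 102 (1.7%) and 173 genes (2.33%) had an unadjusted p under 0.05 on the higher side. On the lower side 183 (1.64%), 263 (2.03%), 147 (2.45%) and 181 (2.44%) did. DESeq2 called 3, 0, 0 and 0 higher and 0 lower in each.

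Among the DG-like genes with the smallest p-values were Erbb4, Bc1, Ptms, Mmel1 and Upf3b. Mmel1, a membrane metalloendopeptidase related to neprilysin (GRCm39 chromosome 4, 154954042 to 154979985), had 71.0 and 183.4 CPM in Control-Vehicle and Stress-Vehicle, 914.5 and 321.2 CPM in Control-PLX5622 and Stress-PLX5622, and 28.3 to 43.7 CPM in the other 4 pools. Both PLX5622 pools lay above the rest, Control-PLX5622 the higher (log2 difference 2.35, SE 0.41, adjusted p = 0.0271, edgeR). Bc1, a short noncoding RNA of neuronal cytoplasm and dendrites (chromosome 7, 144468199 to 144468374), had 46.7 and 83.5 CPM with vehicle and 225.3 and 202.2 with PLX5622 (1.83, SE 0.30, adjusted p = 0.0212). Ptms, encoding parathymosin, had 44.3 and 54.9 CPM with vehicle and 79.6 and 118.1 with PLX5622 (1.05, SE 0.18, adjusted p = 0.0271). Upf3b, a factor of nonsense-mediated decay, had 59.7 and 90.1 CPM with vehicle and 128.5 and 157.2 with PLX5622 (1.01, SE 0.18, adjusted p = 0.0271).

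Among the DG-like genes that passed, several are on marker lists of other classes. Those reported here are Erbb4 (INH), Slc1a3 (astrocyte) and Tshz2 (other excitatory). Erbb4, a neuregulin receptor of inhibitory neurons, had 118.4 and 130.2 CPM with vehicle and 253.4 and 235.4 with PLX5622 (1.03, SE 0.16, adjusted p = 0.0168). The summed level of 10 oligodendrocyte markers in DG-like nuclei was 445.1 and 461.4 CPM with vehicle, 625.6 and 562.5 with PLX5622 and 396.0 to 483.4 in the other 4 pools. That of 11 inhibitory markers was 2195 and 1986 CPM with vehicle and 2193 and 1863 with PLX5622. Other genes that passed, listed after their values were seen, were Tshz2, Slc17a9, Neat1, Slc1a3, Il31ra and Rn18s-rs5, a copy of 18S ribosomal RNA that shares reads with other copies. Of these, Neat1 gave 29 and 17 UMIs with vehicle and 9 and 52 with PLX5622. Its log2 ratio of PLX5622 to vehicle was 0.88 in the control pair (95% interval -0.38 to 2.00), within counting error. In the stress pair that ratio was 2.67 (1.85 to 3.55).

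Depth moved with these calls. In DG-like nuclei, 75.6 and 83.2% of PLX5622 nuclei lay in a shallow cluster, with medians of 448.5 and 504 UMIs, against 20.9 and 47.0% of vehicle nuclei, with 672 and 573. In CA1-like nuclei the shallow cluster held 83.3 and 94.4% with PLX5622 and 28.2 and 78.0% with vehicle. Within Control-Vehicle alone, Bc1 was higher in DG-like nuclei of 300 to 1200 UMIs than in deeper ones, by 1.89 on the log2 scale (95% interval 1.41 to 2.34), and within Stress-Vehicle by 1.09 (0.66 to 1.52). For Mmel1 the same ratio was -0.63 (-1.43 to 0.07) and 0.16 (-0.17 to 0.49). When only nuclei of 300 to 1200 UMIs were summed, Mmel1 still passed in DG-like nuclei (2.36, adjusted p = 0.000167), whereas Bc1 (0.94, 0.427), Ptms (0.78, 0.993), Upf3b (0.80, 0.993) and Erbb4 (1.02, 0.0862) did not. Mmel1 was itself the first leading gene of the shallow DG-like cluster. Clusters were made from the same transcripts, so this result is not independent of how nuclei were assigned. Over all DG-like nuclei the log2 ratio of Mmel1 was 3.69 (95% interval 3.50 to 3.87) in the control pair. In the stress pair it was 0.81 (0.61 to 1.01).

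CA1-like nuclei had Tshz2, a zinc finger gene on the list of other excitatory neurons, at 57.5 and 83.0 CPM with vehicle and 150.8 and 246.9 with PLX5622 (1.54, SE 0.21, adjusted p = 0.00461, edgeR). Il31ra, a subunit of the interleukin-31 receptor, had 13.8 and 29.7 CPM with vehicle and 92.7 and 62.2 with PLX5622 (2.02, SE 0.34, adjusted p = 0.0437). In nuclei of 300 to 1200 UMIs the log2 difference was 1.02 for Tshz2 (adjusted p = 0.660) and 2.02 for Il31ra (0.0814), so neither passed. On all UMIs Tshz2 and Il31ra also passed in DG-like nuclei (log2 differences 0.98 and 1.47). Il31ra was also a leading gene of a shallow unnamed cluster (median 540 UMIs), after the mitochondrial genes mt-Rnr2 and mt-Rnr1. Whether transcripts of that kind had a part in the Il31ra calls was not tested. Other excitatory-like nuclei had Zdhhc1, a palmitoyltransferase, at 72.6 and 68.8 CPM with vehicle and 247.8 and 174.1 with PLX5622 (1.64, SE 0.26, adjusted p = 0.00213). There Banf2 had 84.7 and 38.9 CPM with vehicle and 444.2 and 91.0 with PLX5622 (2.08, SE 0.33, adjusted p = 0.00213), so Stress-PLX5622 lay only just above Control-Vehicle. Mmel1 also passed there (2.47, SE 0.50, adjusted p = 0.0494), but on 13 and 12 UMIs with vehicle and 31 and 14 with PLX5622, with a stress-pair log2 ratio of 0.63 (95% interval -0.59 to 1.87), and it passed in 2 of 17 alternatives. Rn18s-rs5 passed (0.81, adjusted p = 0.0494), but not in nuclei of 300 to 1200 UMIs (0.44, adjusted p = 0.992). Zdhhc1, Banf2 and Mmel1 were too low to test in other excitatory-like nuclei of that depth. Thinned to 300 UMIs, Zdhhc1 gave 4 and 5 UMIs with vehicle and 12 and 8 with PLX5622. Banf2 gave 6 and 0 UMIs with vehicle and 25 and 6 with PLX5622.

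In astrocyte-like nuclei the genes with the smallest p-values included Bc1, Mmel1, Neat1, Slc1a3 and Prr5l. Slc1a3, the glutamate transporter GLAST and itself an astrocyte marker, had 904.1 and 1262 CPM with vehicle, 2385 and 2265 with PLX5622 and 849.2 to 1288 in the other 4 pools (1.22, SE 0.22, adjusted p = 0.00719, edgeR). Neat1, the long noncoding RNA of paraspeckles, had 161.8 and 78.1 CPM with vehicle and 198.8 and 1717 with PLX5622. Its fitted log2 difference was 2.60 (SE 0.44, adjusted p = 0.00349, edgeR). In the control pair its log2 ratio of PLX5622 to vehicle was 0.30 (95% interval -0.35 to 0.90), within counting error. In the stress pair that ratio was 4.46 (3.80 to 5.20), so the call came mainly from the stress pair. Bc1 had 83.5 and 74.0 CPM with vehicle and 269.7 and 306.8 with PLX5622 (1.94, SE 0.28, adjusted p = 0.000669). Mmel1, measured on 17 and 9 UMIs with vehicle and 29 and 41 with PLX5622, had a log2 difference of 2.64 (SE 0.43, adjusted p = 0.00281). Prr5l (2.39, SE 0.48), a leading gene of the unnamed cluster described above, passed at an adjusted p of 0.0189. The summed level of 10 oligodendrocyte markers in astrocyte-like nuclei was 472.9 and 407.1 CPM with vehicle, 1036 and 938.1 with PLX5622 and 434.3 to 1012 in the other 4 pools; its part in these calls was not tested. In nuclei of 300 to 1200 UMIs Neat1 passed (2.16, adjusted p = 0.0146), and Slc1a3 (0.83, 0.0826) and Bc1 (1.69, 0.0740) did not. Within Control-Vehicle alone, Slc1a3 was higher in astrocyte-like nuclei of 300 to 1200 UMIs than in deeper ones, by 1.20 on the log2 scale (95% interval 0.91 to 1.49). Within Stress-Vehicle that ratio was 1.43 (1.09 to 1.77). For Neat1 the same ratios were 1.08 (0.31 to 1.78) and 1.51 (-0.0038 to 2.96), and for Bc1 0.19 (-1.31 to 1.40) and 1.65 (0.11 to 3.14). The part of depth in these calls was not tested. On all UMIs Bc1, Mmel1, Neat1 and Slc1a3 also passed in DG-like nuclei, so these differences were not particular to astrocyte-like nuclei. In DG-like nuclei Slc1a3 had 56.8 and 66.7 CPM with vehicle and 122.4 and 114.7 with PLX5622 (1.01, SE 0.19).

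**Figure D4:**
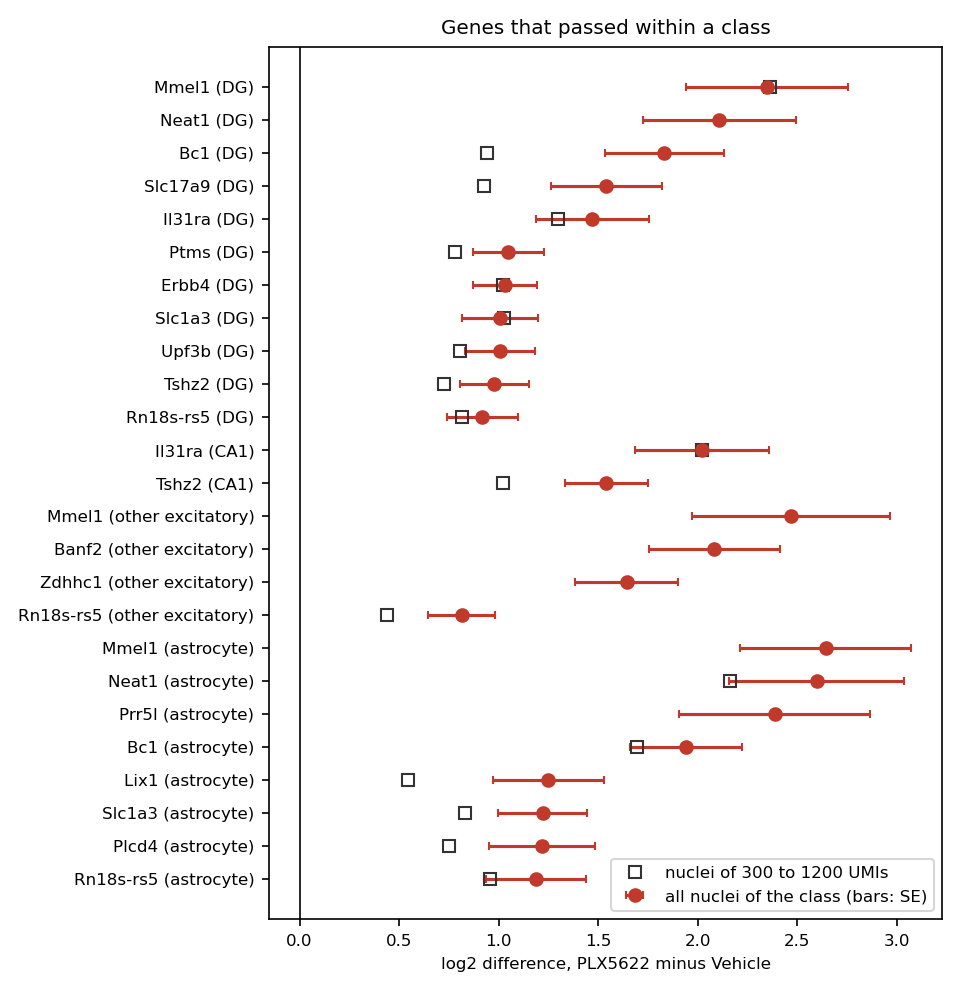
Log2 difference of PLX5622 minus Vehicle (horizontal axis) for genes that passed within a class, Gm names and genes not reported here left out (vertical axis, class in brackets). Red points with SE bars use all nuclei of the class and open squares nuclei of 300 to 1200 UMIs, with no square where the gene was too low to test; Mmel1 in DG-like nuclei stays at 2.36 while Bc1 moves from 1.83 to 0.94.

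No gene of the synaptic and signalling lists passed in neurons. In DG-like nuclei 19 postsynaptic glutamate genes gave 0 calls and a median log2 difference of 0.04, and 19 synaptic vesicle genes 0 calls and 0.10, beside 0.01 for all genes. In CA1-like nuclei the same lists gave 0 calls, with medians of -0.02 and -0.03. Of 12 activity-regulated genes, 6 were tested in DG-like nuclei with 0 calls and a median of -0.11. In CA1-like nuclei 11 gave a median of -0.01, in CA2/3-like nuclei 8 a median of -0.66, in INH-like nuclei 9 a median of -0.39 and in other excitatory-like nuclei 5 a median of -0.69, all with 0 calls. Of these genes, 5 of 8 in CA2/3-like nuclei were lower in both pairs (29.4% of all genes tested there) and 7 of 9 in INH-like nuclei (30.9%). Both PLX5622 pools lay below all 6 other pools for 5 of 9 in INH-like nuclei (8.23%), and 2 of 5 in other excitatory-like nuclei had an unadjusted p under 0.05 on the lower side (2.27%). The criterion of these counts differs from class to class, and DG-like and CA1-like nuclei are not among them. They therefore do not describe the list in neurons as a whole. Neuronal ligands for microglial receptors, 10 of 11 tested in DG-like nuclei, gave 0 calls and a median of 0.22. Cx3cl1, the ligand of CX3CR1, had 44.7 and 38.1 CPM in DG-like nuclei with vehicle and 44.1 and 48.4 with PLX5622 (0.21, SE 0.23). Bdnf had 38.7 and 34.0 CPM with vehicle and 29.4 and 34.0 with PLX5622 (-0.13, SE 0.22), and Fkbp5, a glucocorticoid-induced chaperone, 134.0 and 147.8 against 149.4 and 147.0 (0.11, SE 0.18). In oligodendrocyte precursor-like nuclei 19 of 24 oligodendrocyte lineage genes were tested, with 0 called and a median of 0.25; Pdgfra, their growth factor receptor, had 200.1 and 199.3 CPM with vehicle and 143.8 and 281.7 with PLX5622.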

How the data were processed

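The deposited files hold UMI counts per gene and nucleus, made by the authors from nuclei barcoded with a Parse Biosciences kit and aligned to mm39 by that company's pipeline. The submitters' processing notes name build mm39 and Seurat 4.1.1. Each of 4 sublibraries held nuclei of all 8 pools, each pool 3 mice. Nuclei with over 20% mitochondrial UMIs were left out. Scanpy 1.11.5 and leidenalg 0.10.2 clustered the rest (2000 variable genes, 30 components, resolution 1), and clusters were named from marker lists by a rule settled after the clusters were seen. UMIs were summed per pool and class and fitted with edgeR 4.0.16 quasi-likelihood tests (R 4.3.3, TMM, stress and arm as terms, Benjamini-Hochberg adjustment over all features). A gene was called at adjusted p under 0.05 with both pairs the same way, on all UMIs and thinned to 300. Up to 6 called genes per class and direction were named by smallest p, leaving out Gm, Rik, ribosomal protein and mt genes. DESeq2 1.42.0, other filters, depths and cluster settings, and leaving out each sublibrary were alternatives. No doublets were removed in the main fits, and leaving out the top 6% of Scrublet scores was an alternative. Intervals and floors (3 counts) cover counting error only. Fits were tested on simulated data. The comparison, lists and rules were chosen with earlier results of these data known. Some genes that these rules select are not reported here.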

Additional observations from a re-analysis of the deposited data

Results flagged for a closer look

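In Con-nIL-1R1-/- 1 sublibrary held 1565 nuclei, apart from 1643, 1650 and 1653 in the others. Chance marks about 1 in 20 such groups of 4. Stress-PLX5622 had 2.4% of its nuclei over the mitochondrial limit (189 of 7867), against 0.448% in Stress-Vehicle (33 of 7365), and these nuclei are in no comparison.

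In 3 classes the log2 ratio of shares, PLX5622 to vehicle, had opposite signs in the control and stress pairs, and the difference between pairs was not tested. For astrocyte-like nuclei the ratios were -0.42 and 1.27, for oligodendrocyte-like nuclei -1.01 and 0.91, and for the unnamed cluster led by Prr5l -0.49 and 0.37.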

How the results depend on the processing

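The lower share of microglia-like nuclei kept its direction and call in 13 of 13 alternatives and that of the unnamed Inpp5d-led cluster in 12 of 12. With classes made from thinned nuclei that cluster did not form, so 1 class was called lower instead of 2 (microglia-like, log2 -3.19). Some microglia-like nuclei were then found in the PLX5622 pools, with log2 share ratios of -2.89 and -3.54, and with 15 components in Stress-PLX5622 (-5.87). In nuclei of 300 to 1200 UMIs a further unnamed cluster was called lower (-2.11), making 3. Ependymal-like nuclei passed with TMM over classes (1.63), making 1 class called higher instead of 0. Without each sublibrary in turn their log2 difference ran from 1.22 to 1.75 and the classes called higher from 0 to 1, the call coming without replicate 2 (1.46). Over all nuclei, genes called higher numbered 14 with the 4 diet pools alone, 93 with no filter other than 1 UMI, 22 with DESeq2, and 0 to 1 without each sublibrary. Genes called lower numbered 5, 55 and 13 in the first 3 of these, 4 thinned to 300 UMIs, 3 thinned to 500 and 37 in nuclei of 300 to 1200 UMIs. Within classes, 30 genes were called higher in the main fits. There were 144 with the 4 diet pools alone, 15 with library size only, 117 with no filter, 17 thinned to 300, 17 thinned to 500, 18 without the top Scrublet scores, 12 with classes from thinned nuclei and 17 in nuclei of 300 to 1200 UMIs. Without each sublibrary the count ran from 12 to 33. In DG-like nuclei it ran from 3 to 15 and in astrocyte-like nuclei from 2 to 9. Genes called lower, 0 in the main fits, numbered 2 with the 4 diet pools alone, 5 with no filter, 1 thinned to 300, 1 in nuclei of 300 to 1200 UMIs, and 0 to 1 without each sublibrary. Gm19951 in other excitatory-like nuclei reversed to -0.15 in nuclei of 300 to 1200 UMIs. The cause of these changes was not tested. Pools were paired by stress state, which is a term of the fits. No further pairing was possible because pools carry no replicate numbers.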
